A study of Gallus gallus with 8 samples.

Results

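The genes described here encode platelet-derived growth factor (PDGF) signals and their alpha receptor. They were chosen by name, as the ligand genes PDGFA, PDGFC and PDGFD and the receptor gene PDGFRA, by a rule that uses no measured value but was written with earlier results of these data known. Of these 4 names, 3 stood in the expression table among 14642 genes. PDGFA was not listed under that name, but the table held a gene named PDGF-A, which RefSeq gives as a synonym of PDGFA, and that gene was added beside the other 3 after its values had been seen.

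RNA-Seq was performed on dorsal skin of untreated chicken (Gallus gallus) embryos, in which epithelium and mesenchyme were pulled apart before RNA extraction. Embryos were taken at Hamburger & Hamilton (H&H) stage 31, which the labels give as embryonic day 7, and at H&H 35, given as day 9. These stages lie before and after the onset of feather bud elongation. The study compared them to screen for ion channel genes that might take part in the change of electric currents over that time. The 4 groups were thus epithelium and mesenchyme of each stage, each group with 2 biological replicates labelled batch I and batch II. No strain, sex or pooling of embryos was given in the labels. Values below are in RPKM, a read number scaled to transcript length and to library depth.

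PDGF proteins act as dimers of A, B, C or D chains. The A and C chains bind the receptor tyrosine kinase PDGFRA, the D chain binds mainly PDGFRB, and the B chain binds both. PDGF-A and PDGF-B are cut to their active form inside the secreting cell, whereas PDGF-C and PDGF-D are secreted with an extra domain that proteases outside the cell remove. In mouse skin, PDGF-A made by the epidermis signals to PDGFRA on mesenchymal cells of the dermis, a common form of exchange between a covering epithelium and the tissue beneath it.

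The 8 libraries held between 22050712 and 33620383 alignments. The tissue labels held up against epithelial and dermal fibroblast markers. All 13 epithelial markers measured were lower in mesenchyme at both stages, with CDH1 (E-cadherin) in mesenchyme at 0.520% of its epithelial mean at H&H 31 and 1.005% at H&H 35. Over all genes tested, 27.7% were called lower in mesenchyme at H&H 31 and 37.1% at H&H 35. Of 13 dermal fibroblast markers, 12 were higher in mesenchyme at H&H 31 and 13 at H&H 35, where 29.7% and 29.1% of all genes were called higher, and no marker of either list was at 0 in both libraries of a group. The study names melanocytes among the cells in the epithelium. All 10 melanocyte markers tested were lower in mesenchyme at both stages. Their summed level in epithelium was 302 to 393 RPKM at H&H 31 and 434 to 498 RPKM at H&H 35. Epithelium below thus means the tissue, not 1 cell type. Tests were made with limma on log2(RPKM + 1), over 11155 genes, with p-values adjusted by the Benjamini-Hochberg method over all of them. Changes below are on that log2 scale, which understates the change of genes near 0, and a gene was called at an adjusted p under 0.05. The comparisons share libraries and are not independent of each other.

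PDGF-A was an epithelial transcript whose level in epithelium fell with stage. It was at 119 and 121 RPKM in H&H 31 epithelium, behind which stood 2281 and 2840 reads. In H&H 35 epithelium it was at 47.8 and 64.2 RPKM. In mesenchyme it was at 2.67 and 3.62 RPKM at H&H 31 and at 7.53 and 6.72 RPKM at H&H 35. No pair of groups overlapped. The early epithelium was highest, then the late epithelium, the late mesenchyme and the early mesenchyme. The mean in epithelium was 38.2 times that in mesenchyme at H&H 31 and 7.86 times at H&H 35.

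**Figure D1:**
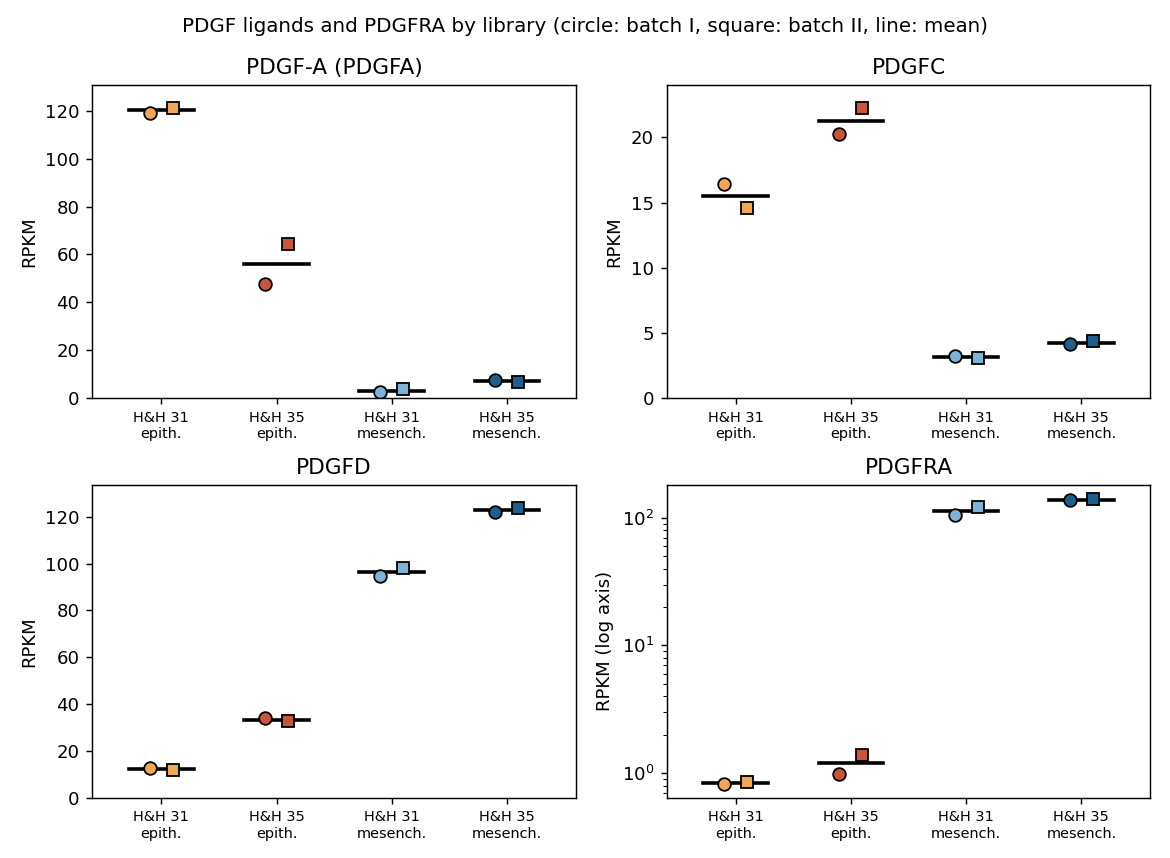
RPKM of PDGF-A, PDGFC, PDGFD and PDGFRA in each of the 8 libraries, by group, with circles for batch I, squares for batch II and a line at the mean of the 2 libraries; the PDGFRA axis is logarithmic and the others start at 0. PDGF-A and PDGFC lie higher in epithelium, PDGFD and PDGFRA higher in mesenchyme, and PDGFRA in epithelium stays between 0.829 and 1.39 RPKM.

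The narrowing came from both tissues. PDGF-A in epithelium went from 120.1 ± 1.40 RPKM (SD, n = 2) to 56.0 ± 11.6, a log2 change of -1.10 (SE 0.15, limma adjusted p = 0.000635). In mesenchyme PDGF-A went from 3.14 ± 0.670 to 7.13 ± 0.574 RPKM (SD, n = 2), a log2 change of 0.98 (SE 0.15, limma adjusted p = 0.00108). The mesenchymal minus the epithelial stage change of PDGF-A was 2.08 (SE 0.21, limma adjusted p = 0.000112). As these are bulk samples, fewer cells that express a gene and less RNA per cell cannot be told apart, here or in what follows. The mesenchymal level of PDGF-A was 2.62% of the epithelial level at H&H 31 and 12.7% at H&H 35. The 13 epithelial markers stood between 0.251% and 80.4% at H&H 31 (median 0.961%), with 4 of them above PDGF-A, and between 0.702% and 27.96% at H&H 35 (median 1.27%), with 1 above it. In mesenchyme 8 of these 13 genes rose with stage and 1, JUP, fell, where 18.2% of all genes were called higher and 21.6% lower. The summed level of the 13 was 60.3 to 73.0 RPKM at H&H 31 and 64.6 to 70.4 RPKM at H&H 35. JUP was the largest part of that sum and the marker with the highest mesenchymal share, and its mesenchymal mean went from 53.6 to 30.9 RPKM. The means of the 8 that rose did so by 2.35 times (CDH1) to 11.3 times (KRT5), and that of PDGF-A by 2.27 times. In epithelium 9 of the 13 rose and 0 fell, where 18.6% of all genes were called higher and 15.9% lower, while PDGF-A fell. Of the 8, the mesenchymal shares of KRT5 and KRT15 fell, from 2.725% to 1.27% and from 3.35% to 1.21%. That of KRT14 was 1.68% and 1.63%. The shares of CDH1, TP63, CLDN1, DSP and PERP rose, as from 1.03% to 3.17% for TP63. The part of epithelial RNA in the mesenchymal PDGF-A level was not tested.

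PDGFC was also an epithelial transcript, at a lower level and with a tissue ratio that was close at both stages. It was at 16.5 and 14.6 RPKM in H&H 31 epithelium and at 20.3 and 22.2 RPKM in H&H 35 epithelium. In mesenchyme PDGFC was at 3.21 and 3.10 RPKM at H&H 31 and at 4.12 and 4.39 RPKM at H&H 35, from 110 to 222 reads per library. All 4 groups were apart, with the late epithelium highest, then the early epithelium, the late mesenchyme and the early mesenchyme. The epithelial mean of PDGFC was 4.92 times the mesenchymal mean at H&H 31 and 4.996 times at H&H 35.

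PDGFC rose slightly in both tissues. The log2 change was 0.43 in epithelium (SE 0.10, limma adjusted p = 0.0113) and 0.34 in mesenchyme (SE 0.10, limma adjusted p = 0.0294). Their difference was -0.09, with a 95% interval from -0.42 to 0.24 (limma adjusted p = 0.642), and with libraries scaled to equal sums it was 0.06. Both calls were the least stable among the ligands. Without the second replicate of H&H 31 epithelium the epithelial adjusted p of PDGFC was 0.0981, and without the second replicate of H&H 35 epithelium it was 0.0656. With equal sums it was 0.0714. The mesenchymal call of PDGFC was lost when any of the 4 mesenchymal libraries was left out, with limma adjusted p from 0.0531 to 0.124, with quantile normalization (adjusted p = 0.106) and when only the mesenchymal libraries were fitted (adjusted p = 0.0782).

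PDGFD, which signals mainly through PDGFRB, was the ligand of the mesenchyme. It was at 94.6 and 98.0 RPKM in H&H 31 mesenchyme and at 121.9 and 123.8 RPKM in H&H 35 mesenchyme, from 2157 to 4161 reads. In epithelium PDGFD was at 12.8 and 11.8 RPKM at H&H 31 and at 33.9 and 32.7 RPKM at H&H 35. The 4 groups were apart, and both tissues were higher at the later stage. The mesenchymal mean of PDGFD was 7.82 times the epithelial mean at H&H 31 and 3.69 times at H&H 35.

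The epithelial gain of PDGFD was the larger. In epithelium PDGFD went from 12.3 ± 0.682 to 33.3 ± 0.817 RPKM (SD, n = 2), a log2 change of 1.37 (SE 0.07, limma adjusted p = 3.22e-06). In mesenchyme it went from 96.3 ± 2.41 to 122.8 ± 1.31 RPKM (SD, n = 2), a log2 change of 0.35 (SE 0.07, limma adjusted p = 0.00517). The mesenchymal minus the epithelial change was -1.02 (SE 0.10, limma adjusted p = 0.000102). Over the same time the dermal fibroblast list in epithelium had 3 genes that rose and 4 that fell of 13, where 18.6% of all genes were called higher and 15.9% lower, and its summed level went from 1097 to 1222 RPKM at H&H 31 to 819 to 893 RPKM at H&H 35. PDGFD in epithelium stood at 12.8% of its mesenchymal mean at H&H 31 and at 27.1% at H&H 35. The 13 fibroblast markers stood between 0.118% and 111% at H&H 31 (median 7.38%), with 5 above PDGFD, and between 0.333% and 72.1% at H&H 35 (median 6.38%), with 3 above it. They did not move together. The shares of CDERMO-1, PRRX1 and TWIST1 went from 0.128%, 0.1255% and 0.1175% to 0.479%, 0.379% and 0.365%. Their epithelial means rose by 2.28, 4.96 and 3.44 times (TWIST1 not called), and that of PDGFD by 2.70 times. The epithelial means of CDERMO-1, PRRX1 and TWIST1 were low, at 0.805, 0.173 and 0.0939 RPKM at H&H 31. At H&H 35 they were 1.84, 0.857 and 0.323 RPKM. POSTN, which rose in epithelium, went from 0.703% to 18.1%. LUM went the other way, from 7.38% to 1.002%, as did FN1, from 73.45% to 16.5%, and VIM, from 6.68% to 3.24%. The shares of COL3A1, DCN and PDPN also fell, and those of COL1A2, COL5A1 and DPT rose. The largest parts of the summed level in epithelium were COL1A2 and DCN, at 40.9% and 111% of mesenchyme at H&H 31. The part of mesenchymal RNA in the epithelial PDGFD level was not tested.

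PDGFB, the remaining ligand gene in the table, changed its tissue. It was at 27.4 and 23.3 RPKM in H&H 31 epithelium and at 3.62 and 3.62 RPKM in H&H 35 epithelium. In mesenchyme PDGFB was at 2.57 and 3.49 RPKM at H&H 31 and at 7.91 and 6.58 RPKM at H&H 35. Epithelium was thus higher at H&H 31, by 8.37 times, and mesenchyme higher at H&H 35, by 2.003 times, with no overlap at either stage. The log2 change of PDGFB with stage was -2.51 in epithelium (SE 0.14, limma adjusted p = 5.22e-06) and 1.04 in mesenchyme (SE 0.14, limma adjusted p = 0.000617), and their difference was 3.55 (SE 0.20, limma adjusted p = 8.67e-06).

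Vessel markers rose in mesenchyme over the same time as PDGF-A and PDGFB, and so did 8 of the 13 epithelial markers, while 1 fell. PDGFB is known from mouse as a product of endothelial cells that recruits pericytes. Of 13 endothelial markers 10 rose in mesenchyme between the stages, where 18.2% of all genes were called higher, with a median log2 change of 0.85 against -0.03 over all genes tested. The summed endothelial marker level in mesenchyme was 124.5 to 129.9 RPKM at H&H 31 and 271.6 to 298.5 RPKM at H&H 35, and in epithelium it lay between 1.27 and 2.75 RPKM. The summed level of 9 smooth muscle and pericyte markers in mesenchyme was 27.4 to 28.4 RPKM at H&H 31 and 100.9 to 127.7 RPKM at H&H 35, and 7 of them rose. No marker of either list was at 0 in both libraries of any group. The 2 H&H 35 mesenchyme libraries differed in striated muscle markers, whose sum over 6 genes was 2.25 RPKM in one and 29.3 RPKM in the other. DES, which is in that list and in the smooth muscle list, ranged from 1.68 to 4.90 RPKM there, and TAGLN from 12.6 to 25.8 RPKM. Of 7 Schwann and neuron markers tested, 0 rose and 6 fell in epithelium, with a median log2 change of -0.95 against 0.02 over all genes. There 18.6% of all genes were called higher and 15.9% lower. In mesenchyme 0 of the 7 rose and 3 fell, where 18.2% of all genes were called higher and 21.6% lower. The part of any of these cells in the ligand levels was not tested.

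Summed over the 4 ligand genes, epithelium moved from mostly PDGF-A to a mixture. PDGF-A made up 67.8% and 70.9% of the summed ligand RPKM in the H&H 31 epithelium libraries and 45.3% and 52.3% at H&H 35. PDGFD made up 7.28% and 6.93% of it at H&H 31 and 32.1% and 26.7% at H&H 35. PDGFC made up 9.36% and 8.53% at H&H 31 and 19.2% and 18.1% at H&H 35. The share of PDGFB in epithelium was 15.6% and 13.7% at H&H 31 and 3.43% and 2.95% at H&H 35. In each of these the libraries of the 2 stages were apart. Mesenchyme was dominated by PDGFD at both stages, with 91.8% and 90.6% of the summed ligand RPKM at H&H 31 and 86.2% and 87.5% at H&H 35.

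**Figure D2:**
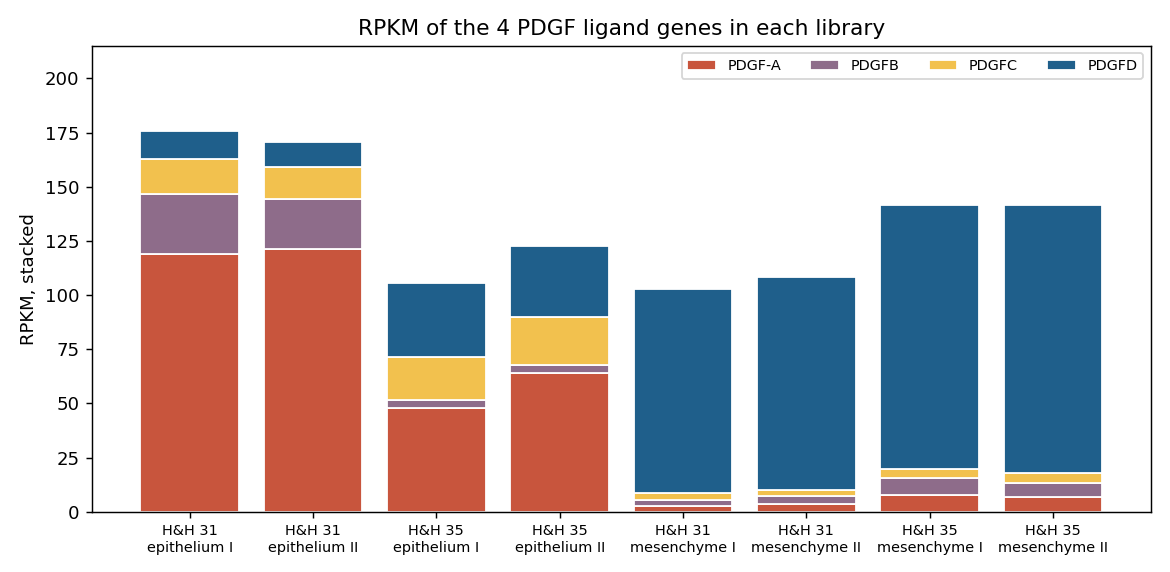
Stacked RPKM of PDGF-A, PDGFB, PDGFC and PDGFD in each of the 8 libraries, 1 bar per library. The sum is 175.8 and 170.8 RPKM in H&H 31 epithelium, 105.5 and 122.8 RPKM in H&H 35 epithelium, 103.0 and 108.2 RPKM in H&H 31 mesenchyme and 141.5 RPKM in both H&H 35 mesenchyme libraries, where PDGFD fills most of each bar.

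PDGFRA, the receptor for the A and C chains, was a mesenchymal transcript at both stages. It was at 104.3 and 121.4 RPKM in H&H 31 mesenchyme and at 136.6 and 140.4 RPKM in H&H 35 mesenchyme. In epithelium PDGFRA was at 0.829 and 0.846 RPKM at H&H 31 and at 0.992 and 1.39 RPKM at H&H 35. The mesenchymal libraries were all far above the epithelial ones, so that the ligands PDGF-A and PDGFC were higher on the side where the receptor was low. The mesenchymal mean of PDGFRA was 134.7 times the epithelial mean at H&H 31 (limma adjusted p = 1.41e-09) and 116.2 times at H&H 35 (limma adjusted p = 1.54e-09). The epithelial mean was 0.742% of the mesenchymal mean at H&H 31 and 0.861% at H&H 35. Of the 13 fibroblast markers, 5 had a lower epithelial share than PDGFRA at H&H 31 and 8 a higher one, and at H&H 35 these numbers were 4 and 9.

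The stage change of PDGFRA lay near the threshold. In mesenchyme it went from 112.8 ± 12.1 to 138.5 ± 2.70 RPKM (SD, n = 2), and the stages did not overlap. The log2 change was 0.30 (SE 0.11, 95% interval 0.04 to 0.55), which did not pass over all genes (limma adjusted p = 0.0644). With the replicate number as a block, which uses the shared batch label, the adjusted p of PDGFRA in mesenchyme was 0.0434. With equal sums, median-ratio scaling and quantile normalization it was 0.0455, 0.0275 and 0.00336, and with the last of these the log2 change was 0.56. Without the first replicate of H&H 31 mesenchyme the log2 change of PDGFRA was 0.19 (limma adjusted p = 0.358). In epithelium the log2 change was 0.25 (SE 0.11, 95% interval -0.01 to 0.50, limma adjusted p = 0.124), at levels where adding 1 to the RPKM compresses differences. The stage changes of the tissues differed by 0.05, with a 95% interval from -0.31 to 0.41 (limma adjusted p = 0.832).

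PDGFRB, which carries PDGF-B and PDGF-D signals, lay with PDGFRA but at a lower level. It was at 14.3 and 15.0 RPKM in H&H 31 mesenchyme and at 17.8 and 18.7 RPKM in H&H 35 mesenchyme. In epithelium PDGFRB was at 0.111 and 0.0605 RPKM at H&H 31 and at 0.0327 and 0.0703 RPKM at H&H 35, from 4 to 9 reads per library. In the mesenchymal libraries PDGFRA stood at 7.29 to 8.08 times the RPKM of PDGFRB, with no separation by stage. Neither stage change of PDGFRB passed, at -0.05 in epithelium (limma adjusted p = 0.792) and 0.30 in mesenchyme (limma adjusted p = 0.0549), and the second passed with each of the scalings above (adjusted p from 0.0238 to 0.0427). PDGFD and PDGFRB were thus both highest in the same tissue, unlike PDGF-A and PDGFRA.

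PDGFRL encodes a protein that resembles the outer part of the PDGF receptors but has no kinase. It was at 42.8 and 43.9 RPKM in H&H 31 mesenchyme and at 58.3 and 51.9 RPKM in H&H 35 mesenchyme. In epithelium PDGFRL was at 8.58 and 7.58 RPKM at H&H 31 and at 4.52 and 4.41 RPKM at H&H 35. The tissues moved apart, with a log2 change of -0.73 in epithelium (limma adjusted p = 0.000439) and 0.34 in mesenchyme (limma adjusted p = 0.0196), and a difference of 1.07 (limma adjusted p = 0.000311). The mesenchymal call of PDGFRL was lost without either H&H 31 mesenchyme library (adjusted p = 0.103 and 0.0784), without the first of H&H 35 (adjusted p = 0.116) and with the gene's own variance (adjusted p = 0.0529).

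**Figure D3:**
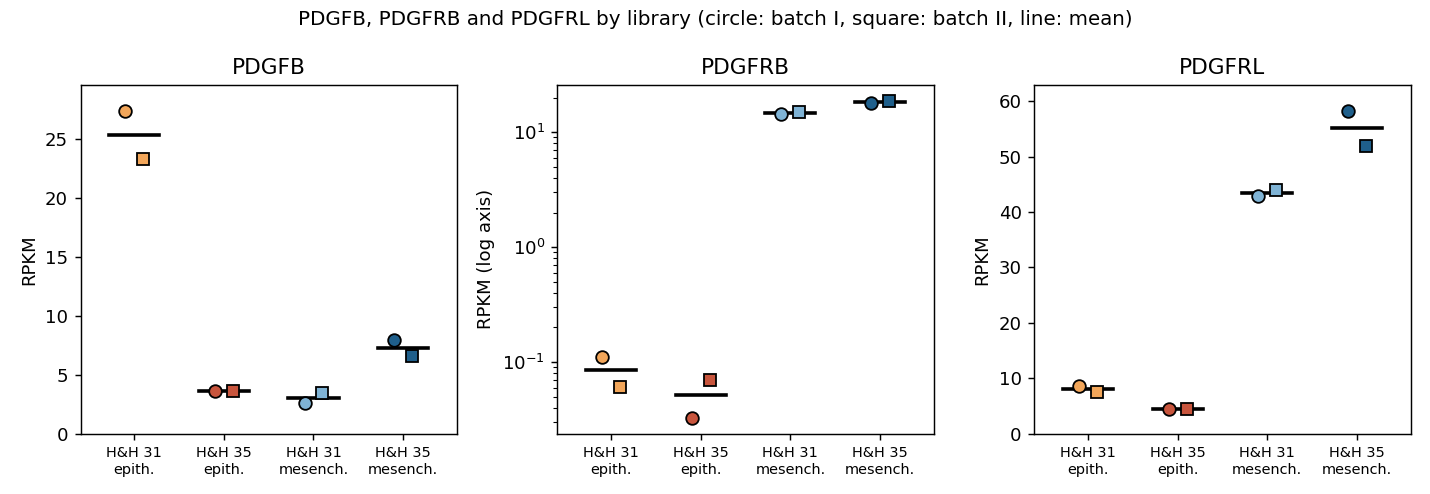
RPKM of PDGFB, PDGFRB and PDGFRL in each of the 8 libraries, by group, with circles for batch I, squares for batch II and a line at the mean; the PDGFRB axis is logarithmic. PDGFB is highest in H&H 31 epithelium, at 27.4 and 23.3 RPKM, while PDGFRB and PDGFRL are higher in every mesenchymal library than in any epithelial one.

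All 4 genes named at the start differed between the tissues at both stages. At H&H 31, PDGFD and PDGFRA were higher in mesenchyme and PDGF-A and PDGFC lower, where 29.7% of the 11155 genes tested were called higher and 27.7% lower. At H&H 35 the same 2 were higher and the same 2 lower, where 29.1% of genes were called higher and 37.1% lower. Among the tissue differences, the log2 value of PDGF-A was -4.88 at H&H 31 (limma adjusted p = 1.34e-08) and -2.80 at H&H 35 (limma adjusted p = 3.74e-07). For PDGFC it was -1.99 (limma adjusted p = 2.9e-07) and -2.08 (limma adjusted p = 2.17e-07), and for PDGFD it was 2.87 (limma adjusted p = 4.99e-09) and 1.85 (limma adjusted p = 4.64e-08). Each of these held its direction in batch I and in batch II alone, since no groups overlapped.

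Stage changes called in epithelium were 2 higher, PDGFC and PDGFD, and 1 lower, PDGF-A, where 18.6% of genes were called higher and 15.9% lower. In mesenchyme 3 were called higher, PDGF-A, PDGFC and PDGFD, where 18.2% of genes were called higher and 21.6% lower. For the difference of the stage changes, PDGF-A was called higher and PDGFD lower, where 19.4% of genes were called higher and 23.0% lower. Of the calls over all genes, 53.9% were higher in the epithelial comparison and 45.8% in that of the difference, and with libraries scaled to equal sums these shares were 38.5% and 59.5%. The calls of PDGF-A and PDGFD kept their direction under that scaling.

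**Figure D4:**
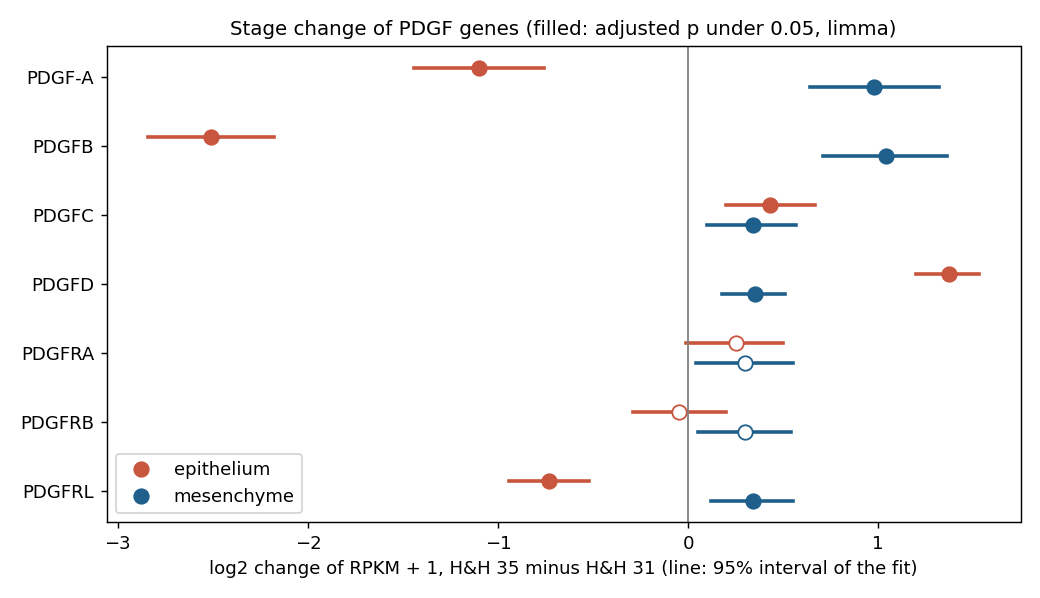
Stage change (H&H 35 minus H&H 31) of 7 PDGF genes in epithelium and mesenchyme on the log2(RPKM + 1) scale, with points at the estimate and lines over the 95% interval of the limma fit; filled points have an adjusted p under 0.05. PDGF-A, PDGFB and PDGFRL fall in epithelium and rise in mesenchyme, whereas PDGFD rises in both, by 1.37 and 0.35.

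Genes that process or bind PDGF proteins were followed as a list of 9, of which 8 were in the table. In epithelium 2 rose with stage, 4 fell and 2 were not called, with a median of -0.37 against 0.02 over all genes, of which 18.6% were called higher and 15.9% lower. In mesenchyme 1 rose and 7 were not called, with a median of -0.03 against -0.03. Between tissues, 3 were higher in mesenchyme and 2 lower at H&H 31, and 5 were higher and 3 lower at H&H 35. Over all genes the shares called were 29.7% and 27.7% at H&H 31 and 29.1% and 37.1% at H&H 35. At H&H 31 the counts were 3 and 4 with equal sums and 3 and 3 with quantile normalization. The roles given here are known from human and mouse proteins.

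Among the convertases, which cut PDGF-A and PDGF-B inside the cell, FURIN varied little. In epithelium it was at 10.02 and 10.9 RPKM at H&H 31 and at 12.6 and 12.2 RPKM at H&H 35. In mesenchyme it was at 8.499 and 9.04 RPKM at the early stage and at 9.16 and 7.69 RPKM at the late stage. The only call was a lower level of FURIN in mesenchyme at H&H 35 (log2 -0.52, limma adjusted p = 0.00212). PCSK5 was mesenchymal, at 6.10 and 5.002 RPKM at H&H 31 and 4.02 and 4.35 RPKM at H&H 35, against 0.575 and 0.499 and then 0.167 and 0.158 RPKM in epithelium. PCSK6 rose in both tissues. It was at 1.79 and 2.19 RPKM in H&H 31 epithelium and 5.94 and 6.33 in H&H 35 epithelium (log2 1.26, limma adjusted p = 0.000959). In mesenchyme PCSK6 was at 1.10 and 1.25 RPKM at H&H 31 and 11.8 and 7.41 RPKM at H&H 35 (log2 2.26, limma adjusted p = 3.81e-05).

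Among the proteases that activate PDGF-C and PDGF-D outside the cell, PLAU and ST14 fell in epithelium and PLAT was not called between stages in either tissue. PLAT, the tissue plasminogen activator that cuts PDGF-C, was at 1.32 and 1.40 RPKM in H&H 31 epithelium and 0.764 and 0.980 RPKM in the late epithelium, and this change of -0.34 on the log2 scale did not pass (limma adjusted p = 0.0609). In mesenchyme PLAT was at 1.62 and 1.83 RPKM at H&H 31 and 2.45 and 2.20 RPKM at H&H 35, and it was higher than in epithelium at H&H 35 (log2 0.83, limma adjusted p = 0.000269). PLAU, the urokinase that cuts PDGF-D, fell in epithelium from 9.18 and 11.5 RPKM to 3.15 and 3.77 RPKM (log2 -1.34, limma adjusted p = 0.000408). ST14, or matriptase, which also cuts PDGF-D, fell in epithelium from 37.4 and 36.8 RPKM to 26.6 and 21.8 RPKM (log2 -0.60, limma adjusted p = 0.0211). In mesenchyme, where PDGFD was highest, PLAU lay between 1.53 and 2.41 RPKM and ST14 between 1.87 and 3.64 RPKM, with no call between stages.

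Of the binding genes, NRP1 rose beside PDGFD in epithelium. NRP1, a co-receptor of several growth factors that has been described for PDGF-D, was at 2.25 and 2.29 RPKM in H&H 31 epithelium and at 9.64 and 8.35 RPKM in H&H 35 epithelium (log2 1.61, limma adjusted p = 6.59e-06). In mesenchyme NRP1 was at 38.0 and 41.9 RPKM and then 36.5 and 35.5 RPKM, and the mesenchymal minus the epithelial change was -1.75 (limma adjusted p = 2.97e-05). SPARC, a matrix protein that binds PDGF-B, fell in epithelium from 434 and 451 RPKM to 277 and 294 RPKM (log2 -0.63, limma adjusted p = 0.00305). In mesenchyme SPARC was at 684 and 698 RPKM at H&H 31 and at 784 and 610.4 RPKM at H&H 35, where the later pair enclosed the earlier.

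**Figure D5:**
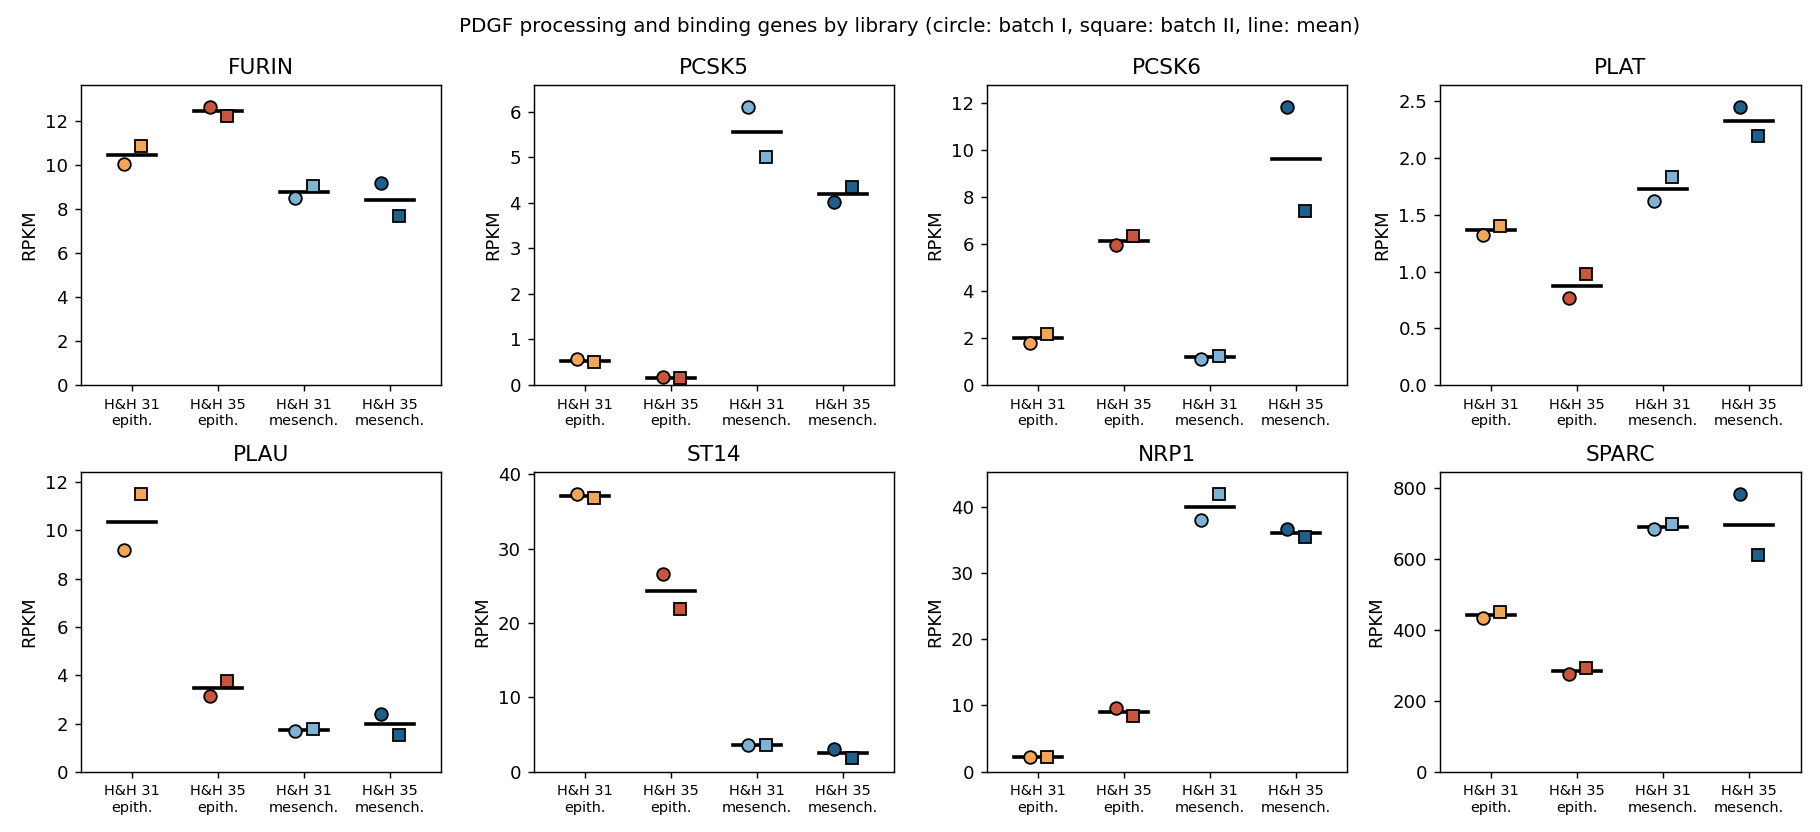
RPKM of 8 genes that process or bind PDGF proteins in each of the 8 libraries, by group, with circles for batch I, squares for batch II and a line at the mean; all axes start at 0. PLAU and ST14 are highest in H&H 31 epithelium, NRP1 and PCSK5 are higher in mesenchyme, and PCSK6 is higher at H&H 35 in both tissues.

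Of 38 genes that carry the receptors' signal inside the cell, 33 were in the table. In epithelium 4 rose with stage and 8 fell, and in mesenchyme 2 rose and 11 fell, with medians of 0.03 (-0.09 with equal sums) and -0.15. The epithelial comparison called 18.6% of all genes higher and 15.9% lower, and the mesenchymal comparison 18.2% and 21.6%. At H&H 31, 18 were higher in mesenchyme and 6 lower (median 0.40, against -0.01 over all genes), and at H&H 35, 10 were higher and 8 lower (median 0.02, against -0.10), where 29.7% and 27.7% of all genes were called at the early stage and 29.1% and 37.1% at the late stage. The counts at H&H 35 were 12 and 5 with equal sums and with median-ratio scaling, and 13 and 7 with quantile normalization. For the difference of the stage changes 1 was called higher and 10 lower, with a median of -0.21 against -0.05, where 19.4% of all genes were called higher and 23.0% lower, and with equal sums the counts were 3 and 6.

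The transducer with the largest fall in mesenchyme was CBLB, a ubiquitin ligase that dampens receptor kinases. CBLB was at 18.6 and 20.7 RPKM in H&H 31 mesenchyme and at 4.12 and 6.49 RPKM in H&H 35 mesenchyme (log2 -1.74, limma adjusted p = 0.000167), and between 0.827 and 1.23 RPKM in epithelium. PIK3R1, the regulatory subunit of phosphoinositide 3-kinase, rose in epithelium from 2.50 and 1.81 RPKM to 7.19 and 8.57 RPKM (log2 1.50, limma adjusted p = 0.000281). In mesenchyme PIK3R1 fell from 13.8 and 13.3 RPKM to 7.21 and 10.6 RPKM (log2 -0.58, limma adjusted p = 0.0294). These opposite changes differed by -2.07 (limma adjusted p = 0.000268). FYN, a kinase of the SRC family that binds the receptors, fell in both tissues. It went from 63.5 and 69.0 RPKM to 32.2 and 35.8 RPKM in mesenchyme (log2 -0.94, limma adjusted p = 7.94e-05) and from 13.1 and 12.8 RPKM to 8.29 and 7.60 RPKM in epithelium (log2 -0.65, limma adjusted p = 0.000665).

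The genes with the pattern most like each of the 4 were taken by Pearson's r on log2(RPKM + 1) over the 8 libraries, as a description. Only tested genes with a gene symbol were ranked, which left out names of the ENSGAL and LOC kind. For PDGF-A they were WNT4, DMD, HHLA2, ATP1B1 and IPMK, with r from 0.9953 to 0.9978. For PDGFC they were DSC2, CIDEA, KITLG, NADK and GALNT3, with r from 0.9975 to 0.9987. The list for PDGFD was HHIP, SLIT3, ROR1, ADAMTSL1 and PTRF, with r from 0.9961 to 0.9984. For PDGFRA the genes were CLMP, TBX18, ASPN, CDH11 and SNAI1, with r from 0.9991 to 0.9996. The 8 points share 2 tissues and 2 stages and are not independent of each other. Among the genes ranked, WNT4, a secreted WNT signal, had the highest r with PDGF-A, at 0.9978, with DMD at 0.9976. HHIP, which binds hedgehog ligands, had the highest r with PDGFD. The epithelial mean of HHIP rose by 32.5 times with stage, and that of PDGFD by 2.70 times.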

How the data were processed

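Dorsal skin RNA was made into TruSeq libraries and sequenced as 50-base single-end reads. The authors mapped the reads to galGal4 in Partek software, with TopHat2 named in the submitters' processing notes, and deposited RPKM per gene with the count of alignments per library. Tool versions and the annotation are not given in the sources used here. RPKM was tested as log2(RPKM + 1), with pseudocount 1, for genes at 1 RPKM or more in at least 2 of 8 libraries, with limma 3.58.1 (variance trend, all 4 groups in 1 fit) in R 4.3.3, in 5 comparisons at an adjusted p under 0.05. Numbers of reads came from the steps of the deposited RPKM values, which were whole within 0.05 reads for 8952 of 11155 genes (80.3%), PDGFRA and PDGFB not among them. On those reads edgeR 4.0.16 was run as an alternative chosen after seeing the data, and it called 3041, 3453, 5071, 5910 and 3359 genes in the epithelial stage, mesenchymal stage, H&H 31 tissue, H&H 35 tissue and difference comparisons. The limma script was tested on simulated data. With 2 libraries per group the p-values rest on a spread pooled over groups and genes.

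Batch I and II are shared labels in all groups, but the labels do not say what a batch is, so a pairing of libraries is not given. Deviations of same-batch libraries correlated across genes by 0.194 between the H&H 31 tissues, 0.316 between the H&H 35 tissues, -0.152 between the epithelial stages and 0.0332 between the mesenchymal stages. The value was -0.184 between H&H 31 epithelium and H&H 35 mesenchyme, and 0.0396 between H&H 31 mesenchyme and H&H 35 epithelium. The genes described and the lists were chosen with earlier results of these data known. Named genes were the 4 genes and all other PDGF ligands, receptors, processing and binding genes. Added to these were up to 4 called genes per list and comparison by size of change. The 5 genes with a symbol most like each of the 4 were named too. Further genes of the lists, such as TP63, COL1A2 and DCN, were named where a sum or a share was described. PDGF-A was added after its values were seen. LRP1 was not used here. No sequence is shown, as no reference sequence was used here.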

Additional observations from a re-analysis of the deposited data

Results flagged for a closer look

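The stage changes of 4 PDGF genes differed between the tissues by the interaction term of the limma fit. The mesenchymal minus the epithelial log2 change was 2.08 for PDGF-A, 3.55 for PDGFB and 1.07 for PDGFRL, each of which fell in epithelium and rose in mesenchyme, and -1.02 for PDGFD, which rose in both. For these 4 genes the difference passed under each alternative run, with the highest adjusted p at 0.0138 for PDGF-A, 0.00443 for PDGFB, 0.00986 for PDGFRL and 0.00422 for PDGFD, all with each gene's own variance.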

How the results depend on the processing

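No result changed direction past the threshold. Calls of PDGF-A, PDGFD and PDGFB, and all tissue differences, held under each alternative run for them. PDGFC in epithelium (log2 0.43) was 0.32 (adjusted p = 0.0714) with equal sums and 0.35 to 0.51 with 1 library left out. PDGFC in mesenchyme (0.34) was 0.24 (adjusted p = 0.106) with quantile normalization, 0.34 (adjusted p = 0.0782) in the mesenchymal libraries alone and 0.30 to 0.38 with 1 library left out. PDGFRA in epithelium (0.25) passed in 3 of 19 alternatives. Among them were 0.45 (adjusted p = 0.0477) with pseudocount 0.1 and 0.33 (adjusted p = 0.0369) with quantile normalization. It lay at 0.12 to 0.38 with 1 library left out. PDGFRA in mesenchyme (0.30) passed in 6 of 19 alternatives. Among them were 0.35 with equal sums, 0.56 with quantile normalization, 0.35 with median-ratio scaling and 0.30 with the replicate block. It lay at 0.19 to 0.41 with 1 library left out. The block changed no other call of a PDGF gene. The cause of these shifts was not tested. Called genes numbered 3842 in the epithelial stage comparison, and 2404 to 4128 with 1 library left out, lowest without the first replicate of H&H 31 epithelium. In mesenchyme they numbered 4435, and 2750 to 4531, lowest without the second replicate of H&H 31 mesenchyme. Equal sums moved the median of all genes from -0.10 to 0.01 in the H&H 35 tissue comparison and from -0.05 to 0.10 for the difference of the stage changes, where PDGF-A was then at 2.24 and PDGFD at -0.85. With 4 to 9 reads per library, depth limits PDGFRB in epithelium.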
